A study of Saccharomyces cerevisiae with 12 samples.

Results

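The small ribosomal subunit protein genes of Saccharomyces cerevisiae, RPS0 to RPS31, were followed across 4 groups of yeast libraries. They were taken by systematic gene identifier and numbered 56 of the 7108 named features in the count table. All 56 passed the filter on low counts and were among the 6372 genes tested. They make up 32 protein families, of which 24 are encoded by an A and a B copy and 8 (among them RPS2, RPS3, RPS12, RPS13, RPS15, RPS20 and RPS31) by a single gene. The 12 RNA-seq libraries comprise 3 of the WT, 3 of nascent ulp2Δ, and 3 each of line 6 and line 9, which are single evolved ulp2Δ lines passaged for 500 generations. All strains derive from MHY1379, in which the chromosomal ULP2 gene is deleted, and the WT carries ULP2 on a low-copy plasmid. Ulp2 is a protease that removes SUMO, a small protein modifier, from other proteins. Nascent ulp2Δ cells had recently lost the plasmid, and both evolved lines came from such cells. The evolved lines are described as carrying changes in Uba2, a subunit of the SUMO-activating enzyme, but the labels do not tie a line number to a genotype. Replicates are only numbered, so p-values measure the spread between these libraries, which may be technical.

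Each 40S ribosomal subunit holds 1 copy of nearly every RPS protein, assembled with the 18S ribosomal RNA, and it scans and decodes mRNA. In budding yeast the RPS genes are among the most strongly transcribed in growing cells. Rap1, Fhl1, Ifh1 and Sfp1 drive them, signalling through TORC1 and protein kinase A couples them to nutrients, and stress lowers them together with the genes of ribosome assembly. Most of the A and B copies descend from a whole-genome duplication and encode the same or almost the same protein.

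The libraries held from 20467216 to 30719553 counts of named genes. As the labels require, ULP2 reached 8699, 8519 and 10694 counts in WT and only 3 to 20 elsewhere. Values below are CPM, a gene's counts relative to the library's total scaled by edgeR's TMM factors, and fold changes come from edgeR's quasi-likelihood test over all 12 libraries with Benjamini-Hochberg adjustment over 6372 genes. A gene is said to have risen or fallen where the adjusted p was under 0.05. The cultures are described as exponentially growing, yet 9 markers of late growth and stress were abundant, at a summed 27428 to 28869 CPM in WT, 11752 to 12074 in nascent ulp2Δ, 25275 to 26028 in line 6 and 22088 to 23355 in line 9. Of these 9 genes, 8 fell and 1 (SPI1) rose in nascent ulp2Δ, HSP26 by -1.47 and HSP12 by -0.97 on the log2 scale (39.7% of all genes tested fell and 33.6% rose). In line 6 against WT 4 rose and 4 fell (36.8% and 37.2% of all genes), and in line 9 against WT 1 rose and 4 fell (32.5% and 33.9%). The sums hide large changes of single markers. SIP18 had 105311 to 130264 counts in WT, 12792 to 14499 in nascent ulp2Δ and 20892 to 24938 in line 6. SOL4 went the other way in line 6, with 8568 to 9302 counts in WT and 17076 to 20867 there. The part of these 9 markers in the results below was not tested.

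The RPS genes took the largest share of counts in nascent ulp2Δ and the smallest in line 6. They held 1.36% to 1.38% of all counts on named genes in the WT libraries, 2.28% to 2.33% in nascent ulp2Δ, 0.468% to 0.493% in line 6 and 0.843% to 0.884% in line 9. No 2 groups overlapped. The mean share was 1.67 times that of the WT in nascent ulp2Δ, while the WT mean was 2.85 times that of line 6 and 1.6 times that of line 9. The 82 large subunit protein genes had mean shares of 2.08% ± 0.0187 (SD, n = 3) in WT, 3.41% ± 0.0612 in nascent ulp2Δ, 0.686% ± 0.0114 in line 6 and 1.32% ± 0.042 in line 9, in the same order. These 82 were picked by gene name and include RPP1 (YHR062C), an RNase P gene that does not encode a ribosomal protein. All counts, shares and medians given for the 82 include it. The values are relative to each library's total, so a lower RPS level and a higher level of other RNAs cannot be told apart from these counts, and neither can a change in every cell and a change in a fraction of the cells.

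The RPS genes were not equally abundant even within the WT. Levels of different genes were compared as CPM per kb of coding length. In WT they ranged over 34.5-fold, from 74.5 ± 3.24 (SD, n = 3) for RPS9A to 2573 ± 108 for RPS30A, with a median of 506. The median of all 5836 protein-coding genes tested was 52.8, and all 56 RPS genes lay above it. RPS30A, which encodes a very short protein at the mRNA entry channel, was highest among the RPS genes in each of the 4 groups, and RPS9A, 1 of 2 genes for a protein known for its part in decoding accuracy, was lowest in each. RPS28A (1414 ± 166), RPS31 (1314 ± 75) and RPS20 (1303 ± 76.7) followed RPS30A in WT, and these 3 levels lay within each other's spread. RPS28B (168 ± 11.4), RPS6B (189 ± 11.2) and RPS7B (194 ± 9.26) stood just above RPS9A. Between the groups the median percentile of the RPS genes among the protein-coding genes moved from 93 in WT to 95.4 in nascent ulp2Δ, 78.5 in line 6 and 88.1 in line 9. In line 6 the range from RPS9A (13.1 ± 1.82) to RPS30A (2288 ± 155) had widened to 175-fold, and 2 RPS genes, RPS9A and RPS6B, lay below the median of protein-coding genes. RPS6B shares 53% of its coding windows of the length of 1 read with RPS6A, so its own level is uncertain in every group.

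**Figure D1:**
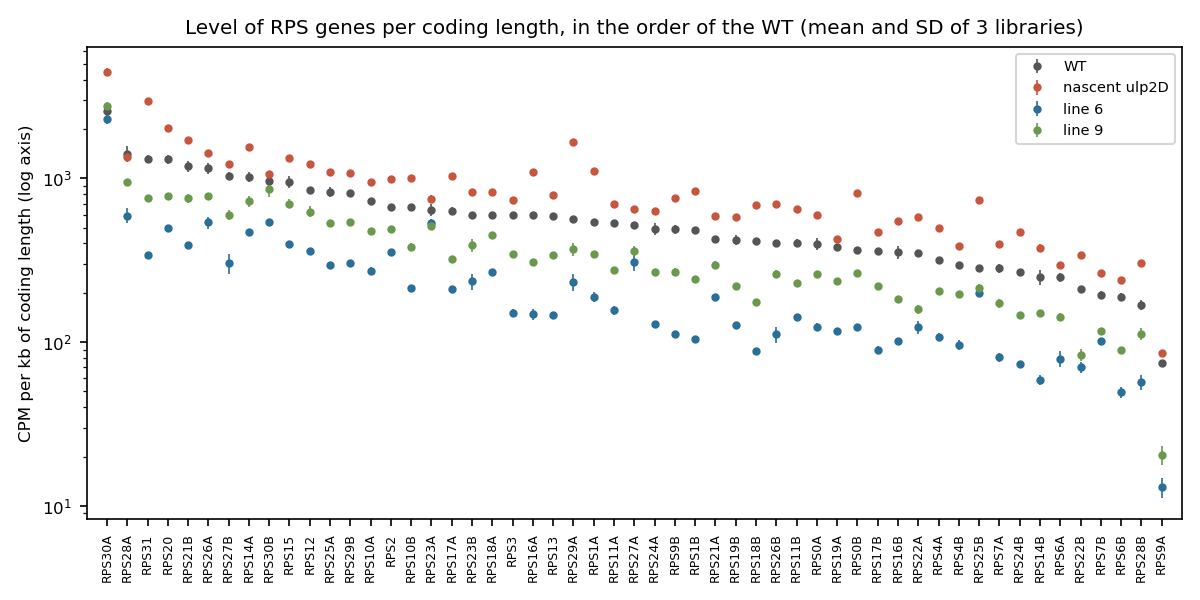
Level of 53 RPS genes as CPM per kb of coding length on a log axis, in the order of the WT; points are group means and bars SDs of 3 libraries in WT (grey), nascent ulp2Δ (red), line 6 (blue) and line 9 (green). Line 6 lies lowest for most genes, while RPS30A and RPS23A lie closest to their WT level there.

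In nascent ulp2Δ almost every RPS gene rose, and the genes on chromosome XII rose most. Against WT 54 of the 56 rose (33.6% of all genes tested did). The 2 others did not pass the test, RPS9A with a log2 fold change of 0.20 (SE 0.09, adjusted p = 0.0669) and RPS28A with -0.07 (SE 0.08, adjusted p = 0.422). The median log2 fold change was 0.52 over the RPS genes and -0.03 over all genes tested. It was 0.47 over the 82 large subunit protein genes (RPP1 included), of which 76 rose and 3 fell. With library totals in place of TMM factors the split of all genes tested was 2794 higher and 1776 lower, against 2144 and 2528 with TMM. RPS28A is the dominant gene for Rps28, a protein of the head of the subunit near the mRNA exit. Its CPM of 292, 320.3 and 253 in WT and 264, 282 and 277 in nascent ulp2Δ overlapped.

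Only 5 RPS genes reached a 2-fold rise in nascent ulp2Δ (6.48% of all genes tested did). These were RPS29A, RPS25B, RPS31, RPS0B and RPS1A, all on chromosome XII. Of the 494 other genes tested on that chromosome, 122 also rose by 2-fold or more. RPS29A (YLR388W, chrXII:898651-898821), 1 of the 2 genes for a zinc-binding protein of the head, had 92.9, 99.7 and 95.7 CPM in WT and 288, 288 and 271 in nascent ulp2Δ. Its log2 fold change was 1.56 (SE 0.07, adjusted p = 4.59e-11), the largest of the 56. RPS25B (YLR333C, chrXII:795573-795899), the minor copy for a head protein known for its role in initiation at internal entry sites, had 96.1, 90.0 and 93.3 CPM in WT and 249.8, 242 and 232 in nascent ulp2Δ, a change of 1.37 (SE 0.05, adjusted p = 2.44e-12). RPS31 (YLR167W, chrXII:498947-499405) encodes ubiquitin fused to a ribosomal protein and is one of the yeast sources of ubiquitin. It had 579, 588 and 643 CPM in WT and 1360.3, 1378 and 1354 in nascent ulp2Δ, with a log2 fold change of 1.18 (SE 0.04, adjusted p = 2.26e-12). The groups were far apart for all of these genes. RPS0B (YLR048W, chrXII:242232-243349), for a protein needed to mature the 18S rRNA, changed by 1.15 (SE 0.03, adjusted p = 3.49e-13), from 286, 279.9 and 268 to 615, 618 and 622 CPM. RPS1A (YLR441C, chrXII:1018141-1018908), for a protein of the platform, changed by 1.02 (SE 0.05, adjusted p = 3.49e-11), from 397, 429.9 and 426 to 822, 853 and 859 CPM.

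The 3 remaining RPS genes on chromosome XII also rose, RPS28B by 0.85, RPS30A by 0.78 and RPS22B by 0.69 on the log2 scale. RPS28B, the minor partner of RPS28A, had 35.7, 35.7 and 31.7 CPM in WT and 62.7, 62.2 and 61.3 in nascent ulp2Δ. The median over the 8 genes was 1.09. The 494 other genes tested on that chromosome had a median of 0.69, and 429 of them rose and 20 fell. Chromosome I, which holds no RPS gene, had a median of 0.68 over 87 genes, and the medians of the other genes on the 14 remaining chromosomes lay between -0.17 and 0.05. RPS genes away from chromosome XII rose as well, 46 of 48 with a median of 0.46. The most raised of these were RPS16A (0.86), RPS24B (0.81) and RPS26B (0.78). In line 6 and line 9 against WT the other genes of chromosome XII had medians of -0.05 and -0.04.

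**Figure D2:**
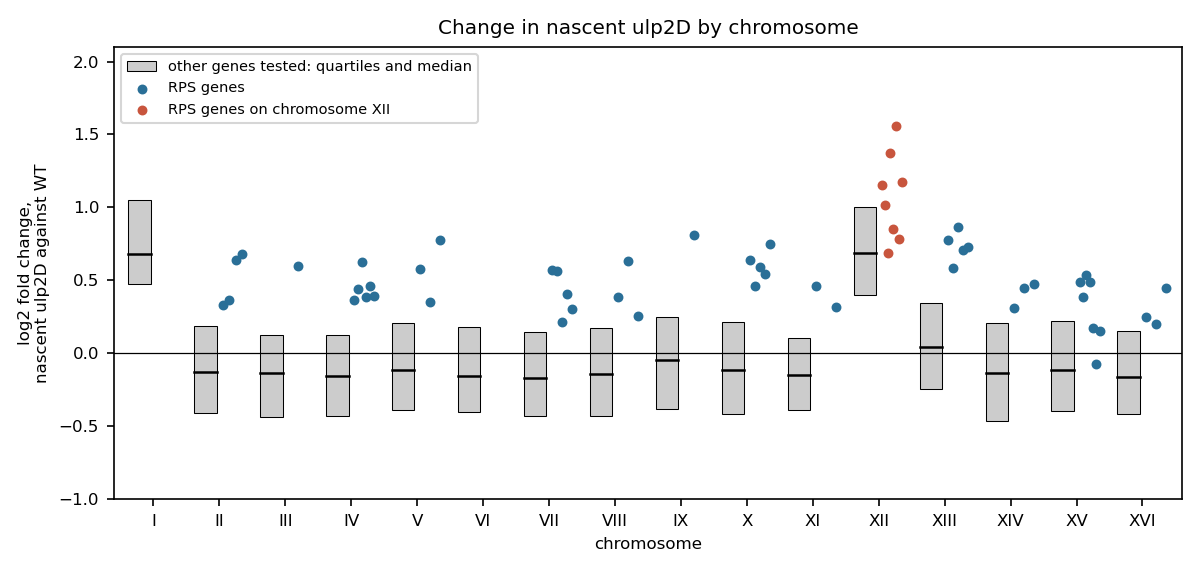
Log2 fold change in nascent ulp2Δ against WT by chromosome; grey boxes give the quartiles and the line the median of the other genes tested, and each point is 1 RPS gene. Chromosomes I and XII have medians of 0.68 and 0.69, the 8 RPS genes on chromosome XII (red) lie between 0.69 and 1.56, and 47 of the 48 on other chromosomes (blue) lie above 0.

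In line 6 every RPS gene fell, most of them by more than 2-fold. Against WT 56 of 56 fell (37.2% of all genes tested did), 49 of them by 2-fold or more (10.5% of all genes), with a median log2 fold change of -1.58. The large subunit protein genes had a median of -1.63, and 82 of 82 fell. The CPM of each of the 56 genes was lower in all 3 line 6 libraries than in any WT library, as it was for 37.4% of all genes. The deepest falls were those of RPS9A, RPS18B and RPS1B. RPS9A (YPL081W, chrXVI:404950-406044) had 43.4, 46.5 and 42.9 CPM in WT and 7.05, 7.22 and 8.99 in line 6, a change of -2.52 (SE 0.11, adjusted p = 7.32e-12). RPS18B, 1 of 2 genes for a head protein near the tRNA sites, went from 181, 183 and 186 to 37.3, 38.1 and 40.8 CPM, a change of -2.24 (SE 0.04, adjusted p = 1.42e-15). RPS1B, the partner of RPS1A, changed by -2.22 (SE 0.04, adjusted p = 1.67e-15), from 376, 364 and 379 to 80.4, 82.8 and 77.2 CPM.

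Some genes fell little in line 6. RPS30A (chrXII:712537-713158) had 496, 472 and 514 CPM in WT and 411, 436 and 470.5 in line 6, a change of -0.17 (SE 0.06, adjusted p = 0.0128). The call was lost without WT replicate 3 (-0.14, adjusted p = 0.0556) or line 6 replicate 1 (-0.12, adjusted p = 0.0751). RPS23A (YGR118W, chrVII:726974-727730), for a protein of the decoding centre, had 273, 264 and 307 and 241, 242 and 222 CPM, a change of -0.26 (SE 0.06, adjusted p = 0.000673). RPS25B changed by -0.52 (SE 0.05, adjusted p = 1.66e-07), to 63.7, 64.7 and 67.2 CPM. The 4 others that fell by less than 2-fold were RPS2 (-0.92), RPS7B (-0.94), RPS27A (-0.75) and RPS30B (-0.82). Single-copy genes, for which no partner can share reads, included values from RPS2, for a protein of the mRNA entry channel, to RPS13, for a protein of the platform. RPS13 had 276, 267 and 256 CPM in WT and 64.6, 66.8 and 68.4 in line 6, a change of -2.0. RPS3 changed by -1.98, RPS31 by -1.95, RPS20 by -1.39, RPS15 by -1.26 and RPS12 by -1.23. Their proteins sit in the platform (Rps13), the entry channel (Rps3), the beak (Rps12 and Rps31) and the head (Rps15 and Rps20).

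In line 9 nearly every RPS gene fell too, but by less. Against WT 55 of 56 fell (33.9% of all genes tested did), 6 of them by 2-fold or more (4.94% of all genes), with a median of -0.70. The large subunit protein genes had a median of -0.74, with 78 of 82 down and 1 up. RPS9A again fell most, from 43.4, 46.5 and 42.9 to 13, 13.2 and 10.3 CPM, a change of -1.86 (SE 0.10, adjusted p = 4.97e-10). The other 5 with a 2-fold fall were RPS22B (-1.32), RPS18B (-1.24), RPS22A (-1.13), RPS6B (-1.08) and RPS1B (-1.01). Both genes for Rps22, a body protein, were thus among them, with RPS22B at 84.6, 78.3 and 83.9 CPM in WT and 30.0, 35.5 and 32.8 in line 9. An snoRNA gene, SNR44, lies in the intron of RPS22B, so reads of the 2 cannot be fully separated. The split of reads between RPS6B and RPS6A is uncertain too, and with both copies summed RPS6 changed by -0.92. RPS30A did not pass the test, with 520.1, 563 and 509 CPM and a change of 0.10 (SE 0.06, adjusted p = 0.117). RPS30B changed by -0.16 (SE 0.06, adjusted p = 0.0249), a call lost without WT replicate 2 (-0.15), WT replicate 3 (-0.14) or line 9 replicate 1 (-0.07). The single-copy genes RPS12 and RPS31 changed by -0.43 and -0.80.

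**Figure D3:**
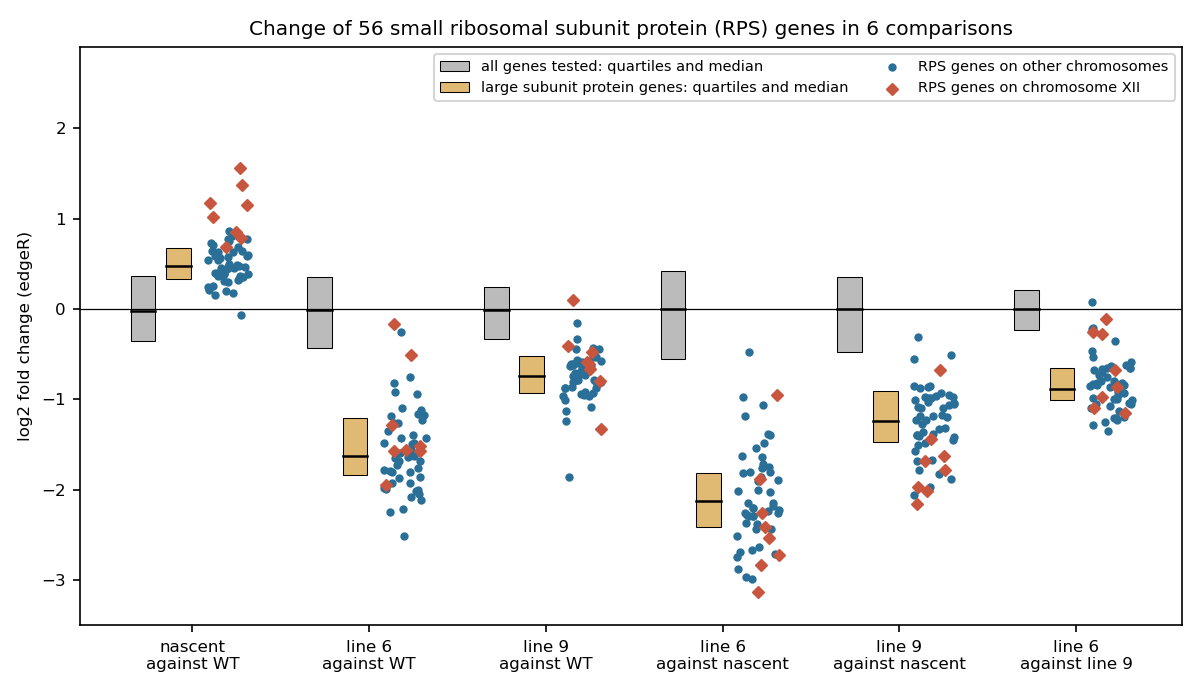
Log2 fold change of the 56 RPS genes in 6 comparisons, as points (red diamonds on chromosome XII, blue on the others), beside the quartiles and median of all genes tested (grey) and of the 82 large subunit protein genes (yellow). Most RPS points lie above 0 in nascent ulp2Δ against WT (all but RPS28A), with a median of 0.52, and most lie below 0 in the other comparisons (exceptions are RPS30A in line 9 against WT and RPS23A between the lines), with medians of -1.58, -0.70, -2.20, -1.23 and -0.84.

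The strains were also compared directly, although comparisons that share a group, such as the 3 against the same WT libraries, are not independent of each other. Against nascent ulp2Δ 56 of 56 RPS genes fell in line 6, with a median of -2.20 (38.9% of all genes tested fell), and 53 fell by 2-fold or more (12.6% of all genes). Line 9 against nascent ulp2Δ also gave 56 of 56 down, with a median of -1.23 (37.9% of all genes), and 41 by 2-fold or more (10.6% of all genes). RPS31 changed most in line 6 (-3.13), from 1360.3, 1378 and 1354 to 157, 153 and 157 CPM. RPS29A changed most in line 9 (-2.16), from 288, 288 and 271 to 61.2, 69.7 and 58.3 CPM. The smallest changes were those of RPS23A in line 6 (-0.47) and RPS30B in line 9 (-0.31). Scaled by library totals instead, all genes tested split into 1626 higher and 3367 lower in line 6 against nascent ulp2Δ (2554 and 2478 with TMM), and into 1670 and 3119 in line 9 against nascent ulp2Δ (2437 and 2416 with TMM).

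Between the evolved lines, 54 of 56 RPS genes were lower in line 6 than in line 9 (29.4% of all genes tested were), 18 of them by 2-fold or more (2.35% of all genes), with a median of -0.84. The large subunit protein genes had a median of -0.89, with 79 of 82 lower. With library totals all genes tested split into 1334 higher and 2328 lower (1800 and 1871 with TMM). RPS14B, the minor gene for a platform protein that binds its own pre-mRNA and holds back its splicing, differed most. It had 23.7, 23.6 and 26.6 CPM in line 6 and 62.2, 64.6 and 61 in line 9, a difference of -1.35 (SE 0.08, adjusted p = 6.89e-10). RPS17B (-1.28), with 35.4, 39.4 and 36 CPM in line 6 and 89.9, 91 and 88.9 in line 9, and RPS9B (-1.25) followed. The 2 genes that did not pass the test were RPS23A, with 241, 242 and 222 CPM in line 6, 214, 224 and 229.9 in line 9 and a difference of 0.08 (SE 0.06, adjusted p = 0.251), and RPS25B, with -0.11 (SE 0.05, adjusted p = 0.0816). RPS27A (-0.22) lost its call when line 6 replicate 1, line 6 replicate 2 or line 9 replicate 2 was left out, at -0.15 to -0.19.

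**Figure D4:**
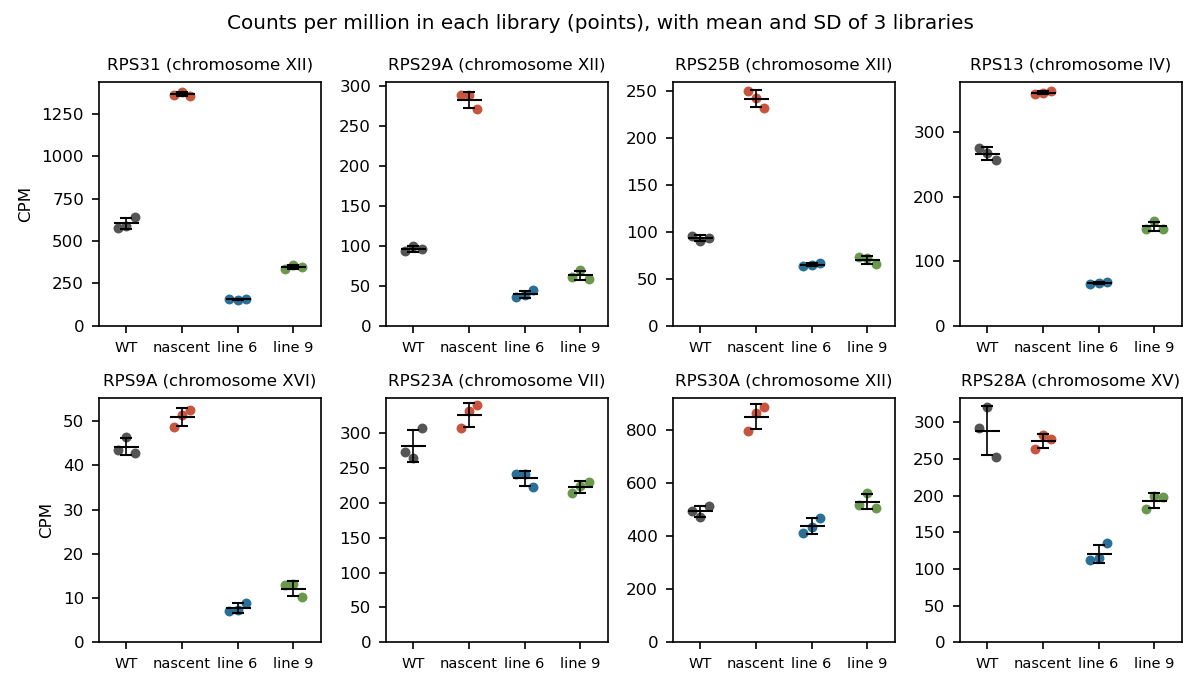
CPM of 8 RPS genes in each of the 12 libraries (points), with the mean and SD of 3 libraries; each axis starts at 0. RPS31, RPS29A and RPS25B stand high in nascent ulp2Δ, RPS9A falls to 7.05 to 8.99 CPM in line 6, and RPS23A and RPS30A stay closer to WT in line 6 than the other 6 genes.

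The counts of the A and B copies were also summed before the fit, and the families then varied less than the single genes. A summed pair changes by an amount between those of its 2 copies, so a narrower spread follows from the summing itself. In nascent ulp2Δ 31 of 32 families rose, and only RPS28 did not pass the test (0.06, adjusted p = 0.466). The single family with a 2-fold rise was RPS31, in place of 5 genes. In line 6 against WT 32 of 32 fell, from RPS30 at -0.32 to RPS9 at -2.16. In line 9 against WT 31 of 32 fell, and RPS30 had a log2 fold change of 0.04 (adjusted p = 0.54). RPS22 was the single family to fall by 2-fold there, at -1.20. The SD of the log2 fold change over families was 0.22 in nascent ulp2Δ, 0.40 in line 6 and 0.22 in line 9, against 0.30, 0.47 and 0.29 over the 56 genes. In line 6 against line 9, 32 of 32 families were lower, with RPS23 nearest to 0 (-0.22) and RPS13 farthest (-1.21).

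The A and B copies were next compared with each other. Reads of the 2 copies can be told apart only where their sequences differ, and the stretches below show this for 3 pairs whose ratio moved and for 1 that is nearly identical. Each line gives 60 coding bases of the R64 (sacCer3) genome, 5′ to 3′ on the gene's strand, and capitals mark the bases that differ between the copies.
RPS29A, chrXII:898666-898725, plus strand: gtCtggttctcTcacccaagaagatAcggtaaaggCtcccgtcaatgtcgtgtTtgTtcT
RPS29B, chrIV:340724-340783, minus strand: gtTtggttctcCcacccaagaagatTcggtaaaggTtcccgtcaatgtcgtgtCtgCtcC
RPS25A, chrVII:534231-534290, minus strand: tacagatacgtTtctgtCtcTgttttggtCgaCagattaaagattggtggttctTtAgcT
RPS25B, chrXII:795672-795731, minus strand: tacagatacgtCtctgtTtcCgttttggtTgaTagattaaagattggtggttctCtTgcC
RPS23A, chrVII:727569-727628, plus strand: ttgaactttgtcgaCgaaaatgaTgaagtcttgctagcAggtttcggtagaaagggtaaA
RPS23B, chrXVI:795606-795665, plus strand: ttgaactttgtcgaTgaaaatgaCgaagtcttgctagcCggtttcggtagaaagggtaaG
RPS6A, chrXVI:377861-377920, minus strand: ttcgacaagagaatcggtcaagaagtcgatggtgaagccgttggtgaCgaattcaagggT
RPS6B, chrII:592282-592341, minus strand: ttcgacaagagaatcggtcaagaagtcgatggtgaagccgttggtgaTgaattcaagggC
These stretches hold the most differences of any in their pair, namely 7 for RPS29, 8 for RPS25, 4 for RPS23 and 2 for RPS6. Over the whole coding sequence the copies of RPS29 are 91.8% identical, those of RPS25 92.4%, those of RPS23 96.6% and those of RPS6 99.2%. Of the 24 pairs, 20 share no coding window of the length of 1 read. The exceptions include RPS6 (53% of windows shared), RPS24 (16.9%) and RPS4 (13%), and for pairs that share windows the split of reads between the copies is uncertain, since the handling of reads that map to both was not stated.

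In WT the copies were used unequally in most pairs. The most unequal were RPS28, with A to B ratios of CPM of 8.18, 8.97 and 7.99 in the 3 libraries, RPS9, with 0.143, 0.173 and 0.15, and RPS14, with 4.24, 3.77 and 4.2. The most equal were RPS23 (1.05, 1.0 and 1.15), RPS4 (1.03, 1.07 and 1.11) and RPS0 (1.14, 1.08 and 1.04). A shift is the difference of the mean log2 ratio between 2 groups. With 3 libraries against 3 an exact two-sided permutation test cannot give a p under 0.1, so non-overlapping libraries are reported as such.

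In nascent ulp2Δ the ratio moved toward the copy on chromosome XII. As a background, 61 pairs of tested genes named by 3 letters, a number and A or B were taken. They include the 24 RPS pairs, and most of the 37 others are large subunit protein genes. The ratios of the 2 groups did not overlap for 19 of 24 RPS pairs, 29 of the 37 others and 78.7% of the 61. The shift was also at least 0.5 for 5 of the RPS pairs, 15 of the 37 others and 32.8% of the 61. These 5 RPS pairs (RPS0, RPS25, RPS28, RPS29 and RPS30) all have 1 copy on chromosome XII. The largest shift was that of RPS29, whose ratio was 0.669, 0.716 and 0.686 in WT and 1.52, 1.58 and 1.53 in nascent ulp2Δ, 1.16 (SE 0.03). Its A copy on chromosome XII was thus the lesser in WT and the greater in nascent ulp2Δ. RPS25 went from 2.8, 2.8 and 3.12 to 1.43, 1.52 and 1.51, -0.97 (SE 0.06), and RPS28 from 8.18, 8.97 and 7.99 to 4.2, 4.53 and 4.52, -0.92 (SE 0.06), each toward its B copy on chromosome XII. For each of these 3 pairs the exact p was 0.1, the smallest possible. Of the 7 pairs with a copy on chromosome XII, 6 shifted toward that copy without overlap, with a median of 0.63 over the 7. The exception was RPS22, which shifted by 0.06 away from it. The 17 other pairs had shifts between 0.01 and 0.47 in size, with a median of 0.23. In line 9 the ratios of RPS28 and RPS29 overlapped those of WT, with shifts of 0.01 and -0.03. There 4 of the 7 pairs were shifted toward the chromosome XII copy without overlap (RPS1 by 0.35, RPS30 by 0.27, RPS25 by 0.22 and RPS0 by 0.13). RPS22 moved away from its chromosome XII copy without overlap, with a shift toward it of -0.20. Of the 61 pairs, 72.1% did not overlap in line 9 against WT, in either direction.

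In line 6 the pairs with shifted ratios included some with no copy on chromosome XII. Against WT the ratios did not overlap for 17 of 24 pairs (30 of the 37 others and 77% of the 61 pairs). For 10 of these 17 the shift was at least 0.5 (13 of the 37 others and 37.7% of the 61 pairs). RPS23 had the largest shift, from 1.05, 1.0 and 1.15 in WT to 2.26, 2.16 and 2.48 in line 6, 1.10 (SE 0.08), so that near-equal copies became unequal. RPS18 went from 1.43, 1.42 and 1.47 to 3.25, 2.98 and 2.91, 1.08 (SE 0.05). RPS27, for a zinc-binding protein, went from 0.501, 0.484 and 0.532 to 0.994, 1.08 and 0.993, 1.02 (SE 0.06), so that the copies, unequal in WT, became level. In all 3 pairs the B copy had fallen more than the A copy, and the exact p was 0.1. RPS14 (0.96), RPS26 (0.77), RPS1 (0.69) and RPS30 (0.65) moved the same way. RPS25 (-0.97) and RPS7 (-0.87) moved toward the B copy, and RPS7, for a body protein, crossed from 1.46, 1.42 and 1.46 to 0.834, 0.827 and 0.728. The shifts of RPS1, RPS25 and RPS30 were toward their copy on chromosome XII, and in nascent ulp2Δ those of RPS25 and RPS30 had been -0.97 and 0.63. RPS22 moved away from its chromosome XII copy in line 6 without overlap, with a shift toward it of -0.09. The ratios of RPS0, RPS28 and RPS29 overlapped those of WT, with shifts toward that copy of 0.11, -0.31 and 0.14.

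In line 9 against WT the ratios did not overlap for 16 of 24 pairs (28 of the 37 others and 72.1% of the 61 pairs). Only 2 of these RPS shifts were at least 0.5 (10 of the 37 others and 19.7% of the 61 pairs). They were those of RPS9, from 0.143, 0.173 and 0.15 to 0.0873, 0.0803 and 0.0648, -1.01 (SE 0.15), and RPS18, from 1.43, 1.42 and 1.47 to 2.52, 2.55 and 2.63, 0.83 (SE 0.03). The next was RPS1, with 0.35 (SE 0.05). The shift of RPS18 toward its A copy was seen in both lines, each set against the same WT libraries. Between the lines the ratios did not overlap for 15 of 24 pairs (25 of the 37 others and 65.6% of the 61 pairs). For 8 RPS pairs the shift was also at least 0.5 (9 of the 37 others and 27.9% of the 61 pairs). The largest were RPS7, with 0.834, 0.827 and 0.728 in line 6 and 1.41, 1.41 and 1.59 in line 9, -0.89 (SE 0.09), RPS23 (0.82 (SE 0.08)), whose ratio in line 9 was 1.39, 1.3 and 1.23, and RPS27 (0.77 (SE 0.05)), whose ratio in line 9 was 0.583, 0.601 and 0.617. In each the exact p was 0.1.

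**Figure D5:**
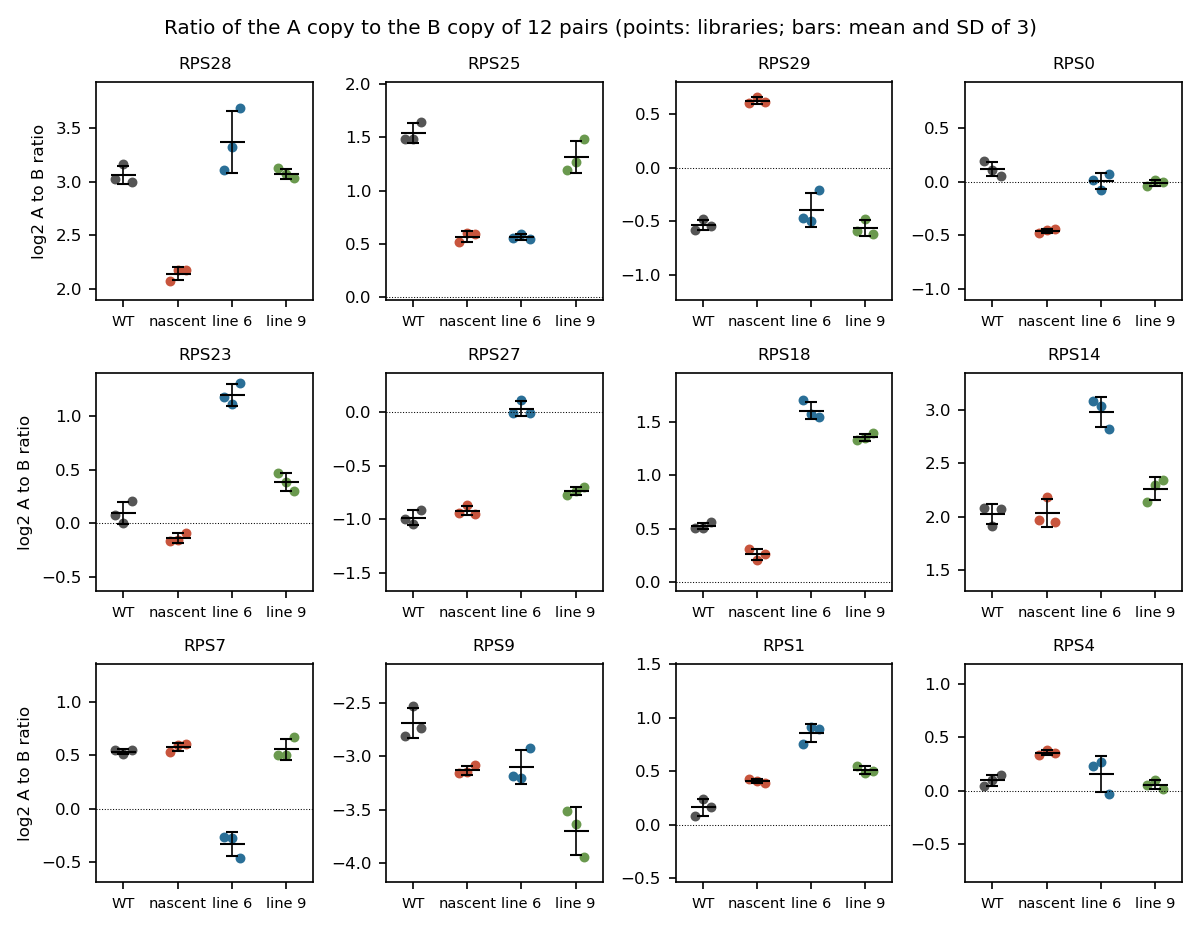
Log2 ratio of the A copy to the B copy in each library (points) for 12 pairs, with the mean and SD of 3 libraries; the dotted line marks equal copies, and each panel spans the same log2 range. RPS28, RPS25, RPS29 and RPS0 shift in nascent ulp2Δ by 0.58 or more in size, RPS23, RPS27, RPS18, RPS14 and RPS7 shift in line 6 by 0.87 or more, and RPS9 shifts most in line 9.

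Classes of RPS genes were compared by their medians. The 36 genes with an intron and the 20 without had median log2 fold changes of 0.47 and 0.57 in nascent ulp2Δ. In line 6 these medians were -1.65 and -1.46, and in line 9 they were -0.73 and -0.62. The 22 genes for proteins of the head and the 34 for proteins of the body and platform had medians of 0.51 and 0.52, -1.57 and -1.59, and -0.70 and -0.69 in the same order. In nascent ulp2Δ the 24 A copies had a median of 0.43 and the 24 B copies one of 0.59. These medians were -1.49 and -1.69 in line 6, and -0.62 and -0.76 in line 9. The 8 single-copy genes had medians of 0.51, -1.67 and -0.76. No test was made between these classes.

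Rap1 binds upstream of most ribosomal protein genes in yeast. Its letters were searched as ACCCNNACA on both strands in the 500 bases before each start codon. They were present for 18 of 56 RPS genes (32.1%), 36 of 82 large subunit protein genes (43.9%) and 316 of 5836 protein-coding genes tested (5.41%), and 4 RPS genes held more than 1 match. The stretches below are from R64, 5′ to 3′ on the gene's strand, with the matching letters in capitals. They show the platform gene RPS13, which fell deeply in line 6, the double match of RPS11B, and both copies of RPS16. RPS16A and RPS16B each hold a further match that lies outside the stretch shown.
RPS13, chrIV:579188-579256, plus strand: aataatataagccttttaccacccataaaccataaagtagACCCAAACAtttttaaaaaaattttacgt
RPS11B, chrII:332503-332571, plus strand: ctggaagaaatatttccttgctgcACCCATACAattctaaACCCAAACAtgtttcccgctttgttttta
RPS16A, chrXIII:551581-551649, plus strand: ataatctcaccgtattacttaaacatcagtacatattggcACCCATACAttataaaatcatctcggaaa
RPS16B, chrIV:308123-308191, minus strand: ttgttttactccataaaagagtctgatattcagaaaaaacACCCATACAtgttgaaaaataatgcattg
RPS13 changed by -2.0 in line 6, RPS11B by -1.5, RPS16A by -2.01 and RPS16B by -1.81. RPS2, which also has a match, changed by only -0.92 there. RPS9A, RPS18B and RPS1B, the genes with the deepest falls in line 6, have none. The 18 genes with a match had a median of -1.67 in line 6 and the 38 without one -1.53, and in line 9 the medians were -0.71 and -0.63. In nascent ulp2Δ they were 0.48 and 0.56. A match is a description of the letters and not of a bound site.

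Genes that serve the 40S subunit were read beside the RPS genes from 3 further lists. Of 18 assembly factors and dedicated chaperones, 4 rose and 9 fell in nascent ulp2Δ, with a median of -0.11 (33.6% of all genes tested rose and 39.7% fell). In line 6 against WT 2 rose and 16 fell with a median of -1.02 (36.8% and 37.2% of all genes), and in line 9 16 fell with a median of -0.50 (33.9% of all genes). The largest changes in line 6 were those of LTV1 (-1.73), which helps form the beak and leaves the maturing subunit late, RRP12 (-1.60), an export factor, and DIM1 (-1.38), an 18S rRNA methylase. LTV1 and RRP12 changed in nascent ulp2Δ by -0.68 and -0.37, so both fell there, where the RPS genes rose. TSR2, the chaperone of Rps26, and EMG1, an assembly methylase on chromosome XII, rose there by 0.54 and 0.85.

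Of 15 factors that bind the 40S subunit, 4 rose and 10 fell in nascent ulp2Δ (median -0.15), 14 fell in line 6 (median -0.70) and 13 fell in line 9 (median -0.27), beside 39.7%, 37.2% and 33.9% of all genes that fell. ASC1, the yeast RACK1 protein on the head of the subunit, changed by 0.77 in nascent ulp2Δ, -1.79 in line 6 and -1.16 in line 9. STM1, which clamps idle ribosomes and lies on chromosome XII, changed by 0.91, -1.28 and -0.36. ASC1 and STM1 therefore rose in nascent ulp2Δ and fell in both lines, as most RPS genes did. NIP1, a subunit of the initiation factor eIF3, fell in all 3 (-0.41, -1.45 and -0.91).

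Among 12 regulators of ribosomal protein genes no common direction was seen, with 6 higher and 4 lower in nascent ulp2Δ, and 7 higher and 3 lower in each evolved line. Of all genes tested 33.6% were higher and 39.7% lower in nascent ulp2Δ. These shares were 36.8% and 37.2% for line 6 and 32.5% and 33.9% for line 9. RAP1 changed by -0.17 in nascent ulp2Δ, -1.0 in line 6 and -0.85 in line 9, and ABF1, a general regulatory factor that binds some ribosomal protein promoters, by -0.15, -1.20 and -0.88. HMO1, which binds the same promoters as a high-mobility-group protein, rose in each, by 0.15, 0.74 and 0.45. FHL1 did not pass the test in any of these comparisons (0.01, -0.09 and -0.07). DOT6, a repressor of ribosome assembly genes, also rose in each, by 1.00, 0.75 and 0.42. SFP1, an activator on chromosome XII, rose by 0.86 in nascent ulp2Δ. IFH1, the coactivator held by Fhl1, is counted among these genes but was uneven within groups. It had 26 to 29 counts in the WT libraries, and a single nascent library, a single line 6 library and 2 line 9 libraries had 4861 to 14118 while the others had 28 to 37, so no change is given for it.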

How the data were processed

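RNA-seq was done on 12 yeast libraries in 4 groups of 3. The submitters' processing notes list Trim Galore 0.5.0, HISAT2 2.1.0, StringTie 1.3.3b, DESeq2 1.22.1 and the sacCer3 build. The authors deposited unnormalized whole-number counts per gene; the handling of strand and of reads mapping to both paralogs is not given in the sources used here. The 6 loci without a gene name took little of any library and were left out. From these counts, TMM-scaled CPM and quasi-likelihood fits of all 12 libraries (group means, filterByExpr) were computed with edgeR 4.0.16 (R 4.3.3), Benjamini-Hochberg adjusted over 6372 genes, with calls at an adjusted p under 0.05; the script was tested on simulated data. DESeq2 1.42.0, other scalings, filters, a replicate block and leave-one-out fits were alternatives. A to B ratios used CPM per library, with exact two-sided permutation tests. Sequences and coordinates came from the RefSeq R64 genome, the same assembly as sacCer3, and were read with Biopython 1.88. The RPS genes and gene lists were chosen with earlier results of these data known, and the head and body classes and the genes named from lists beyond the 3 of largest change were chosen after values were seen. Per-library values were to be given for the 3 highest and 3 lowest RPS genes per comparison, those on chromosome XII, single-copy genes, and pairs with the 3 largest ratio shifts or the most and least equal WT ratios; for some of these only fold changes are printed. Some RPS genes are not reported by name here. No 2 libraries of a group agreed within sampling noise.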

Additional observations from a re-analysis of the deposited data

Results flagged for a closer look

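The change of the RPS genes against WT differed between the strains in the direct tests. In line 6 against nascent ulp2Δ 56 of 56 genes were lower, in line 9 against nascent ulp2Δ 56 of 56, and in line 6 against line 9 54 of 56 (38.9%, 37.9% and 29.4% of all genes tested by edgeR). The groups held 3 libraries each, too few for a check of single libraries that stand apart.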

How the results depend on the processing

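No alternative reversed the median of the RPS genes in any of the 6 comparisons, and the counts of genes past the test stayed within 1.5 times of the value given. Leaving out 1 library gave 53 to 55 higher in nascent ulp2Δ, and 55 to 56, 54 to 55, 56, 56 and 53 to 55 lower in the other comparisons in the order of the report. The 2-fold counts then ran from 4 to 5, 49, 5 to 7, 53 to 55, 39 to 45 and 14 to 20. The medians ran from 0.50 to 0.55, -1.61 to -1.56, -0.70 to -0.67, -2.25 to -2.18, -1.26 to -1.22 and -0.87 to -0.81. The median in nascent ulp2Δ was 0.54 by DESeq2, with DESeq2 size factors, with no filter, with at least 100 counts in 3 libraries and with only the 6 libraries compared. It was 0.55 with upper-quartile factors and 0.56 with TMM factors set without ribosomal protein genes, and these last 2 gave -2.25 and -2.26 in line 6 against nascent ulp2Δ. Library totals in place of TMM factors moved the median of all genes by 0.15 in nascent ulp2Δ, -0.10 in line 6, -0.03 in line 9, -0.25 in line 6 against nascent ulp2Δ, -0.18 in line 9 against nascent ulp2Δ and -0.07 between the lines. The medians of the RPS genes were then 0.66, -1.68, -0.73, -2.45, -1.41 and -0.91. With A and B counts summed, and each gene given its family's value, the medians were 0.53 in nascent ulp2Δ, -1.52 in line 6 and -2.05 between those. The 2-fold counts fell to 1 in nascent ulp2Δ, 2 in line 9 and 10 between the lines, from 5, 6 and 18. Without the chromosome XII genes the 2-fold count in nascent ulp2Δ was 0, by edgeR, while 46 of the 48 left still rose, and the medians were 0.46, -1.63 in line 6 and -2.16 in line 6 against nascent ulp2Δ. RPS28A in nascent ulp2Δ (-0.07) reversed to 0.0778 with library totals, passed the test under no alternative run on single genes, and ran from -0.159 to 0.0108 with a library left out, the last without WT replicate 2. Of 34 ratio shifts, which include those named in the report, none moved by more than the spread between libraries with a pseudocount of 1 CPM, with fitted fold changes or with a library left out. Deviations from the group mean correlated at over 0.1 for 5 of 18 same-numbered pairs of libraries (median 0.03). For pairs with different numbers this held for 7 of 36 (median -0.01). With 3 libraries per group the deviations depend on each other, so this check cannot settle whether the numbers pair the libraries. A replicate block gave the same counts of calls, 54, 56, 55, 56, 56 and 54.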
